A study of Mus musculus with 20 samples.

Results

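Cholesterol is built by a chain of enzymes that starts from acetyl-CoA and passes through mevalonate, farnesyl diphosphate, squalene and lanosterol. The genes of the chain are switched on together by the transcription factor SREBP-2 when sterols in the endoplasmic reticulum are low: SCAP escorts SREBP to the Golgi for cleavage, and the INSIG proteins hold the pair back when sterols are plentiful. The liver X receptors (LXR) are nuclear receptors that bind oxysterols, and they raise the exporters ABCA1 and ABCG1, which load cholesterol onto lipoproteins. Here 28 of the 24411 genes in the count table are described. They are the synthesis enzymes *Acat2*, *Hmgcs1*, *Mvk*, *Pmvk*, *Mvd*, *Idi1*, *Fdps*, *Fdft1*, *Sqle*, *Lss*, *Cyp51*, *Tm7sf2*, *Msmo1*, *Nsdhl*, *Hsd17b7*, *Ebp*, *Sc5d* and *Dhcr7* (18 genes), the SREBP genes and their regulators *Srebf2*, *Srebf1*, *Scap*, *Insig1* and *Insig2* (5), the sterol carrier *Stard4* (1), and the LXR genes *Nr1h3* and *Nr1h2* with the exporters *Abca1* and *Abcg1* (4). They were chosen by name, and all 28 passed the filter on low counts in every comparison.

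RNA of whole kidneys was sequenced from 20 inbred C57BL/6 mice at P125, 5 per combination of sex and genotype: control males are named MC1 to MC5, mutant males MM1 to MM5, control females FC1 to FC5 and mutant females FM1 to FM5. Mutants were *Pkd2* fl/fl mice with Pax8 rtTA and TetO Cre, in which doxycycline (DOX) switches on Cre in the renal tubules and removes *Pkd2*, the gene of polycystin-2. Controls were littermates without one of these transgenes, and every mouse, control or mutant, received DOX at 50 mg per kg on each day from P27 to P29. The Pax8 promoter directs the deletion to tubules and not to the other kidney cells, and bulk RNA cannot tell fewer cells of a type from less RNA per cell. The mice came from 3 litters, which were spread unevenly over the groups.

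Levels are given as CPM, which are counts relative to library size after scaling for composition, and the fold changes come from a count model with litter as a covariate. A gene was called where its adjusted p was under 0.01, and only then is it said to have risen or fallen. Where groups are said not to overlap, the share of all genes without overlap was not counted. Totals lay between 11307741 and 19324073 counts, and the lowest count of any of the 28 genes was 86. *Pkd2* was lower in mutants across both sexes (log2 fold change -1.06, SE 0.12, adjusted p = 9.7e-06), with 291 ± 31.1 CPM in male controls against 119 ± 9.87 in male mutants and 257 ± 49.1 in female controls against 145 ± 33.6 in female mutants (mean ± SD, n = 5 per group). In females alone its log2 fold change of -0.80 had an adjusted p of 0.0276 and was not called. One library, of female mutant FM4, stood apart with 14850 genes detected against 16776 to 17724 in the others. FM4 also had only 76 genes with a single count, against 708 to 859 in the other mice, and the reason was not tested. Results are given with and without it where it changed a call.

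The expression per kilobase of exon was used to rank the genes against each other. Over the 10 controls *Hmgcs1*, the synthase that makes HMG-CoA, was highest at 142 ± 33.9 CPM per kilobase, and *Cyp51*, the lanosterol demethylase, was second at 95.6 ± 19.8. *Ebp*, a sterol isomerase, and *Acat2*, the cytosolic thiolase at the start of the chain, followed at 35.6 ± 4.88 and 35.3 ± 5.37, and these last values did not differ beyond their spread. Of the regulators, *Insig1* had 21.2 ± 3.67, *Insig2* 19.01 ± 1.04, *Srebf2* 13.9 ± 1.62, *Scap* 12.1 ± 0.866 and *Srebf1* 7.66 ± 1.61 CPM per kilobase. The LXR genes were at 26.6 ± 3.15 for *Nr1h3* and 21.02 ± 1.48 for *Nr1h2*, while their targets were low, with 4.11 ± 0.904 for *Abca1* and 1.36 ± 0.585 for *Abcg1*. *Lss*, the lanosterol synthase, stood between them at 2.06 ± 0.194. Some levels are less certain, because exons of *Cyp51*, *Tm7sf2*, *Fdft1* and *Srebf1* overlap exons of *Akap9*, *Vps51*, *Ctsb* and *Rai1*. The strand used for counting was not given in the sources used here. *Tm7sf2* and *Vps51* lie on the same strand, so stranded counting would not separate their shared bases. This limit also holds for the *Tm7sf2* comparisons below. *Cyp51*, *Fdft1* and *Srebf1* lie on the strand opposite to their overlapping gene, so the limit holds for their comparisons too if counting was unstranded. *Acat2* also has a neighbouring paralog, *Acat3*, with group means of 7.95 to 16.2 CPM, and how reads common to both were counted is not given either.

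The promoters of 4 genes are shown, chosen because *Idi1* had the largest difference between the sexes, *Hmgcs1* the highest level, and *Cyp51* and *Abca1* the largest fall and rise in mutants. Each is the 250 bases before the RefSeq transcription start (build GRCm38.p6, written 5′ to 3′ on the strand of the gene). Capitals mark CCAAT boxes (CCAAT, or ATTGG on the other strand), the SREBP-type site TCACNCCAC in *Hmgcs1*, and, in *Abca1*, an E-box (CACGTG) and an LXR-type direct repeat (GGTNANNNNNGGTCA, read here on the other strand). For *Idi1* and *Cyp51* the GENCODE gene starts further upstream, so part of the window lies inside it.
Idi1, chr13:8885356-8885605, forward strand: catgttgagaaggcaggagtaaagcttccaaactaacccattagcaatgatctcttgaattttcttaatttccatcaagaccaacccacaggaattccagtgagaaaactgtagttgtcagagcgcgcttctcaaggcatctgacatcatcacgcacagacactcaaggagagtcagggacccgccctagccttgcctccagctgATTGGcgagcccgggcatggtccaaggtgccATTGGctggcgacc
Hmgcs1, chr13:119690101-119690350, forward strand: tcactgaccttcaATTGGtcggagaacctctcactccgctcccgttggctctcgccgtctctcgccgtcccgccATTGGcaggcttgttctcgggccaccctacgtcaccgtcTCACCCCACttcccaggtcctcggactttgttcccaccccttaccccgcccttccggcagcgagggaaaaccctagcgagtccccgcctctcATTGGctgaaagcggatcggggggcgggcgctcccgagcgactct
Cyp51, chr5:4104698-4104947, reverse strand: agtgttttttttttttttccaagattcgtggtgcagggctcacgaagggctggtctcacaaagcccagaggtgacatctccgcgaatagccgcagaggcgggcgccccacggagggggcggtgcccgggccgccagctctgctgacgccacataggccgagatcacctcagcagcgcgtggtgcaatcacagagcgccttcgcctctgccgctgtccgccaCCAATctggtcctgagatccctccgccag
Abca1, chr4:53159896-53160145, reverse strand: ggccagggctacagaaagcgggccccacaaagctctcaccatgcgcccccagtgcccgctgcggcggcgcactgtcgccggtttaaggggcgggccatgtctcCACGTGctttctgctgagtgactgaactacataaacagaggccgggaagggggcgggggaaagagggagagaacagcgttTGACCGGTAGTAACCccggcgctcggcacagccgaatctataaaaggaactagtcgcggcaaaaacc

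RefSeq windows of 300 bases, 250 before the start and the rest after it, were at hand for 23 of the 28 genes, and not for *Fdps*, *Fdft1*, *Sqle*, *Stard4* and *Abcg1*. Both strands were searched and a gene with several windows counted once. The CCAAT box was found in 18 of the 23 (78.3%) against 41.1% of all 27025 gene symbols with a window, and in 14 of the 15 synthesis enzymes. The GC box GGGCGG was found in 20 of the 23 against 38.2% of all. The SREBP-type site was found only in *Hmgcs1*, 1 of the 23 (4.35%) against 1.44% of all, and the direct repeat was found in *Abca1* and *Srebf1*, against 0.226% of all. An E-box was found in 6 of the 23, namely *Hsd17b7*, *Sc5d*, *Dhcr7*, *Scap*, *Insig1* and *Abca1*, against 8.09% of all. These matches describe letters in the windows and do not show that a factor was bound, and a site outside these windows or with other letters was not counted.

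Between mutants and controls, 5 of the 28 genes were called, against 2252 of the 14191 genes tested, a share close to theirs. Across both sexes, *Cyp51*, *Tm7sf2* and *Nr1h3* fell in mutants and the exporters *Abca1* and *Abcg1* rose. *Cyp51* fell to 0.664 of the control level, *Tm7sf2* to 0.713 and *Nr1h3* to 0.769, while *Abca1* rose 1.75-fold and *Abcg1* 1.55-fold. Thus 2 of 28 genes were higher and 3 lower, against 10.0% of the 14191 genes tested that were higher and 5.86% that were lower. The median log2 fold change was -0.05 over the 28 genes and -0.01 over all genes tested.

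*Cyp51* removes the 14-alpha methyl group of lanosterol and is the enzyme that azoles inhibit. *Cyp51* stood at 310.1, 321, 333, 372 and 375 CPM in the male controls and at 183, 193, 209.7, 212 and 226 in the male mutants. It stood at 478, 491, 503, 512 and 526 CPM in the female controls and at 223, 368, 382, 423 and 434 in the female mutants. Every mutant lay below every control of the same sex (log2 fold change -0.59, SE 0.10, adjusted p = 0.000207). Mutants were lower in 6 of 6 combinations of sex and litter, by 0.31 to 0.78 on the log2 scale.

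*Tm7sf2* encodes a sterol C14 reductase, which acts right after *Cyp51*. *Tm7sf2* stood at 15.8, 15.9, 16.1, 16.5 and 17.1 CPM in the male controls and at 9.33, 10.7, 10.8, 12.2 and 14.4 in the male mutants. It stood at 15.9, 17.8, 19.5, 19.9 and 25.8 CPM in the female controls and at 8.91, 12.8, 15.5, 15.99 and 17.7 in the female mutants. The male mutants lay below all male controls, while the female groups overlapped (log2 fold change -0.49, SE 0.10, adjusted p = 0.00204). The direction was the same in 6 of 6 combinations of sex and litter, but in the females of litter A, with 1 mouse of each genotype, the difference was only -0.01. *Ebp*, further down the chain, had a log2 fold change of -0.25 (SE 0.08, adjusted p = 0.0205) and was not called.

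No other synthesis enzyme was called. Of the 18, 14 had a negative and 4 a positive log2 fold change, with a median of -0.08, and the 16 that were not called lay between -0.25 (*Ebp*) and 0.15 (*Fdps*, the farnesyl diphosphate synthase). In the mevalonate segment *Hmgcs1* had -0.19 (SE 0.09, adjusted p = 0.127), *Mvd*, the mevalonate diphosphate decarboxylase, -0.23 (SE 0.09, adjusted p = 0.062), and *Acat2* -0.18 (SE 0.08, adjusted p = 0.115). *Mvk* and *Pmvk*, the kinases between them, were at -0.01 and -0.00, and *Sqle*, the squalene epoxidase, was at 0.02. Among the remaining enzymes, *Idi1* had -0.21, *Fdft1* -0.05, *Lss* -0.11, *Msmo1*, a C4 sterol methyl oxidase, -0.11, *Nsdhl* 0.08, *Hsd17b7*, a ketosteroid reductase, -0.06, *Sc5d* 0.01 and *Dhcr7*, the last reductase of the chain, -0.01 as log2 fold changes. *Hmgcs1*, *Mvd* and *Ebp* were lower in mutants in 6 of 6 combinations of sex and litter although their tests were not passed.

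**Figure D1:**
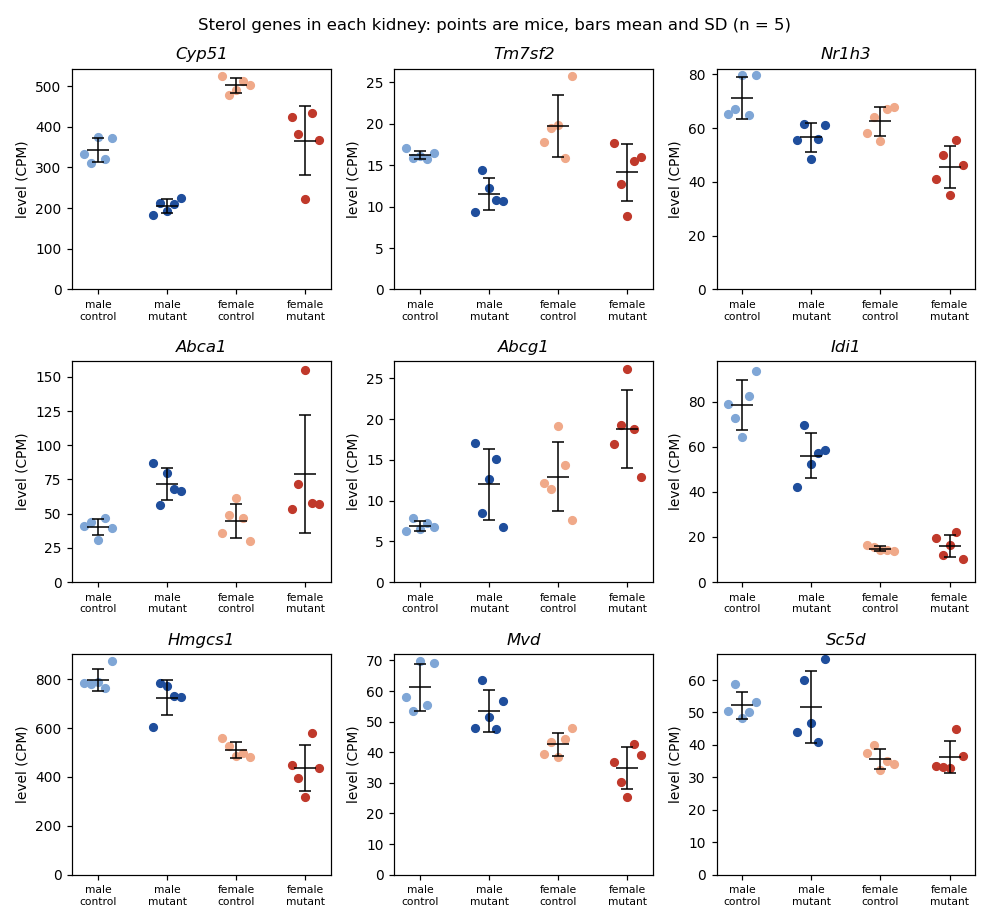
Levels of 9 sterol genes in each kidney, in CPM on axes that start at 0, by sex and genotype. Points are mice and bars are the mean and SD of 5. The Cyp51 mutants sit below the controls of their sex, and male Idi1 values sit above every female value.

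The regulators of SREBP did not pass the test in either direction, with 0 of 5 called. *Srebf1*, which encodes SREBP-1, had the largest difference among them. *Srebf1* stood at 31.1, 33.5, 36.9, 38.2 and 45.7 CPM in the male controls and at 40.5, 41.9, 42.4, 46.8 and 61.1 in the male mutants. It stood at 43.4, 43.8, 45.4, 52.1 and 61.6 CPM in the female controls and at 45.5, 48.5, 50.2, 65.7 and 76.8 in the female mutants. The groups overlapped in both sexes (log2 fold change 0.25, SE 0.09, adjusted p = 0.0599), although the mutants were higher in 6 of 6 combinations of sex and litter. *Srebf2*, the SREBP of the cholesterol genes, was at 0.08 (SE 0.06, adjusted p = 0.336), *Scap* at -0.03 (SE 0.06, adjusted p = 0.752), *Insig1* at -0.03 (SE 0.12, adjusted p = 0.881) and *Insig2* at -0.12 (SE 0.05, adjusted p = 0.0917). Every female mutant lay below every female control in *Insig2*, with 51.4 to 60.5 against 63.7 to 72.02 CPM, but the male groups overlapped. *Stard4*, which carries sterols through the cytosol, was at -0.18 (SE 0.13, adjusted p = 0.342).

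Of the LXR genes and exporters, *Nr1h3* fell and both exporters rose. *Nr1h3* encodes LXR alpha, the form found in liver, fat, kidney and macrophages. *Nr1h3* stood at 64.8, 65.1, 67.1, 79.9 and 79.9 CPM in the male controls and at 48.7, 55.5, 55.8, 61.2 and 61.6 in the male mutants. It stood at 55.3, 58.05, 64.3, 66.97 and 67.8 CPM in the female controls and at 35.05, 41.1, 46.4, 49.95 and 55.5 in the female mutants. Every male mutant lay below every male control, and the female groups overlapped by a narrow margin (log2 fold change -0.38, SE 0.08, adjusted p = 0.00115). *Nr1h2*, the LXR beta gene expressed in most tissues, was at -0.08 (SE 0.05, adjusted p = 0.319) and was not called.

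*Abca1* encodes the exporter that loads cholesterol onto lipid-poor apolipoprotein A-I. *Abca1* stood at 31.03, 39.4, 41.1, 43.6 and 47.01 CPM in the male controls and at 56.5, 66.5, 68.1, 79.9 and 86.8 in the male mutants. It stood at 30.2, 36.1, 47.2, 48.8 and 61.8 CPM in the female controls and at 53.1, 57.3, 57.6, 71.8 and 155 in the female mutants. Male mutants lay above all male controls. Among the females, the mutants and controls overlapped, and the mouse FM3 alone was at 155 CPM (log2 fold change 0.81, SE 0.14, adjusted p = 0.000483). Without FM3 the log2 fold change was 0.65 and the gene was still called. *Abcg1* encodes the exporter that passes cholesterol to formed lipoprotein particles. *Abcg1* stood at 6.29, 6.46, 6.75, 7.31 and 7.82 CPM in the male controls and at 6.72, 8.48, 12.7, 15.1 and 17.1 in the male mutants. It stood at 7.67, 11.4, 12.2, 14.4 and 19.2 CPM in the female controls and at 12.9, 16.9, 18.8, 19.3 and 26.1 in the female mutants. The groups overlapped in both sexes (log2 fold change 0.64, SE 0.14, adjusted p = 0.00227).

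Markers of macrophages, which express both exporters, were also higher in mutants. Of 14 macrophage markers, 13 were higher in mutants, with a median log2 fold change of 1.67, and all 14 had a positive change. None of these markers was at 0 in any mouse. Their summed level was 168 to 201 CPM in male controls and 321 to 936 in male mutants, and 221 to 287 in female controls and 258 to 1302 in female mutants, the highest being FM3. FM3 also had the highest sum of adipose markers, 704 CPM against at most 245 in the other mice. Among the male mutants, MM1 had the highest macrophage sum and the highest *Abca1* and *Abcg1*. The exporters did not follow this sum in every mouse. FM1 had a macrophage sum of 1091 CPM but the lowest *Abca1* of the female mutants, 53.1 CPM. FM4 had the lowest sum of the female mutants, with *Abcg1* at 18.8 CPM. Markers of tubule segments moved too: 9 of 10 markers of the thick limb, distal tubule and collecting duct were lower, with a summed level of 7629 to 7825 CPM in male controls against 4841 to 5786 in male mutants and of 10360.0 to 11120.0 in female controls against 5290.0 to 7785 in female mutants, and 9 of 10 tubule injury markers were higher. Of 16 proximal tubule markers, 1 was higher and 2 were lower, where 10.0% of all genes tested were higher and 5.86% lower. All 10 proliferation markers were higher, with a median log2 fold change of 2.19. The part of these markers in the sterol gene values was not tested.

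The comparisons within each sex used the same mice as the joint one. Within males, *Cyp51* fell (log2 fold change -0.74, SE 0.07, adjusted p = 0.000262) and *Abca1* rose (log2 fold change 0.79, SE 0.13, adjusted p = 0.00268), so 1 of 28 genes was higher and 1 lower, against 5.25% and 3.2% of the 14010 genes tested. The call of *Abca1* rested on MC4, since its adjusted p was 0.0144 without that mouse. Leaving out MM2 instead added *Idi1*, *Tm7sf2* and *Abcg1* to the calls. In females 0 of 28 genes were called by edgeR, against 0.457% called higher and 0.18% called lower of 14439 genes. DESeq2's Wald test also called 0 of the 28, against 928 of the 14439 genes. An unadjusted p under 0.05 was found for 7 of the 28 and for 20.6% of all genes. The female log2 fold changes were 0.84 (SE 0.25) for *Abca1*, -0.44 (SE 0.15) for *Cyp51*, -0.43 (SE 0.12) for *Nr1h3* and -0.47 (SE 0.16) for *Tm7sf2*. The difference between the sexes in the response was tested as a sex-by-genotype term over 14820 genes, of which edgeR called 0%. For none of the 28 genes did it pass: edgeR called 0 members, and DESeq2 called 0 against 18 of all genes. An unadjusted p under 0.05 was found for 2 of the 28 and for 4.17% of all genes; the 2 were *Idi1* (-0.60, SE 0.22) and *Scap* (0.26, SE 0.10), each with an adjusted p of 1.

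The question of whether the sexes differ already in the kidneys with intact *Pkd2* was asked in the controls. *Idi1*, the isopentenyl diphosphate isomerase, was 5.59-fold higher in males than in females. *Hmgcs1* was 1.58-fold, *Sc5d* 1.48-fold, *Mvd* 1.47-fold and *Insig1* 1.39-fold higher in males, whereas *Cyp51* stood at 0.69 of the female level. Thus 5 of 28 genes were higher in males and 1 was lower, against 8.75% higher and 9.02% lower of the 14123 genes tested. The median difference was 0.10 over the 28 genes and -0.01 over all genes.

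The *Idi1* isomerase makes the allylic partner with which the chain of isoprene units begins. *Idi1* stood at 64.5, 72.7, 79.05, 82.4 and 93.7 CPM in the male controls and at 41.96, 52.5, 57.1, 58.6 and 69.5 in the male mutants. It stood at 13.6, 14.1, 14.2, 15.4 and 16.2 CPM in the female controls and at 10.1, 12.2, 16.5, 19.4 and 22.1 in the female mutants. The male values lay above all female values in both genotypes, with a difference in the controls of 2.48 (SE 0.11, adjusted p = 1.14e-08) on the log2 scale. Its paralog and neighbour *Idi2* had a mean of 0.102 CPM in male controls and 0 in female controls. *Idi1* lies at chr13:8885501-8892451 on the forward strand in GENCODE M21 (mm10).

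*Hmgcs1* lies at the head of the mevalonate pathway. *Hmgcs1* stood at 763, 780.3, 783, 787 and 876 CPM in the male controls and at 606, 728, 733, 774 and 783 in the male mutants. It stood at 483, 485, 499.6, 526 and 561 CPM in the female controls and at 319, 396, 436, 449 and 582 in the female mutants. Males lay above females without overlap in both genotypes (log2 fold change 0.66, SE 0.08, adjusted p = 5.78e-05 in controls). *Mvd* stood at 53.4, 55.3, 58.04, 69.1 and 69.95 CPM in the male controls and at 47.7, 47.9, 51.5, 56.9 and 63.6 in the male mutants. It stood at 38.5, 39.3, 43.3, 44.2 and 47.8 CPM in the female controls and at 25.5, 30.2, 36.9, 39.03 and 42.8 in the female mutants. The male and female *Mvd* values did not overlap within either genotype (log2 fold change 0.56, SE 0.09, adjusted p = 0.000848 in controls).

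*Sc5d*, a sterol desaturase near the end of the chain, followed a like pattern. *Sc5d* stood at 48.2, 50.2, 50.4, 53.3 and 58.7 CPM in the male controls and at 41.02, 43.8, 46.9, 60.1 and 66.3 in the male mutants. It stood at 32.1, 34.1, 35.1, 37.4 and 40.1 CPM in the female controls and at 33.02, 33.2, 33.6, 36.4 and 44.9 in the female mutants. Controls did not overlap between the sexes, and mutants did (log2 fold change 0.57, SE 0.09, adjusted p = 0.000679 in controls). *Insig1*, the sterol sensor that holds SCAP in the endoplasmic reticulum and is itself a target of SREBP, was called in controls. *Insig1* stood at 67.2, 69.5, 71.98, 74.95 and 79.5 CPM in the male controls and at 46.03, 47.9, 70.7, 74.6 and 78.8 in the male mutants. It stood at 47.9, 48.4, 55.7, 64.3 and 76.02 CPM in the female controls and at 50.8, 53.5, 65.2, 71.2 and 77.5 in the female mutants. The sexes overlapped in both genotypes (log2 fold change 0.48, SE 0.12, adjusted p = 0.00801 in controls), and the call was lost in 8 of 10 fits that left out a mouse and in the fit of all 20 mice, where the adjusted p was 0.183.

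*Cyp51* was lower in males (log2 fold change -0.54, SE 0.08, adjusted p = 0.000261 in controls), with every male control below every female control. *Fdft1*, the squalene synthase, had the third largest difference toward females. *Fdft1* stood at 27.7, 28.1, 28.5, 32.7 and 32.9 CPM in the male controls and at 23.2, 24.6, 28.7, 31.9 and 32.8 in the male mutants. It stood at 31.4, 34.2, 39.1, 44.3 and 46.7 CPM in the female controls and at 30.3, 31.6, 38.6, 44.1 and 47.9 in the female mutants. The sexes overlapped in both genotypes (log2 fold change -0.33, SE 0.11, adjusted p = 0.0397 in controls) and it was not called. *Abcg1* was also lower in males by 0.71 (SE 0.19, adjusted p = 0.0141) and was not called.

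**Figure D2:**
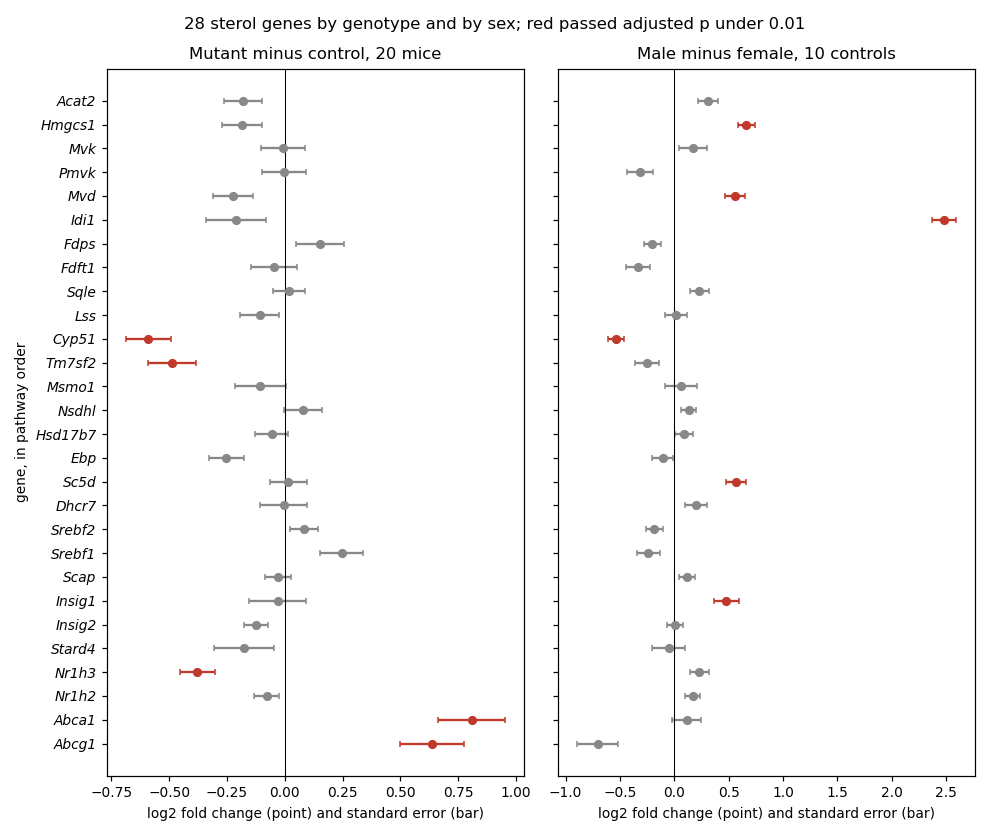
Log2 fold change (points) and standard error (bars) of the 28 genes in pathway order, for mutant minus control in 20 mice on the left and male minus female in the 10 controls on the right. Red points passed an adjusted p under 0.01. Idi1 stands out on the right at 2.48, and Abca1 has the largest value on the left at 0.81.

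Of 16 markers of proximal tubule, 6 were higher in male controls, against 8.75% of all genes tested. Another 6 had a negative difference that was not called, and the median over the 16 was 0.14. Their summed level was 53550.0 to 65490.0 CPM in male and 28050.0 to 37070.0 in female controls. *Kap* had the highest median level of the 16, 19250 CPM over all mice, and was itself higher in males (1.41, SE 0.12). The sum thus depends strongly on this gene. The part of these markers in the sex differences was not tested. In the mutants the sex difference was called for *Idi1* (log2 fold change 1.83, SE 0.22, adjusted p = 0.000514) and *Cyp51* (log2 fold change -0.84, SE 0.17, adjusted p = 0.0089), that is for 1 gene higher and 1 lower, against 3.59% and 1.84% of 14416 genes. *Idi1* was called in 10 of 10 fits that left out a mouse. *Cyp51* was called in only 2 of 10, with an adjusted p of up to 0.0737, reached without FM1. *Hmgcs1* and *Mvd* had differences of 0.75 (SE 0.17, adjusted p = 0.0141) and 0.60 (SE 0.15, adjusted p = 0.0227), and both were called without FM4. The male mutants also lay above all female mutants in *Acat2*, *Scap* and *Insig2*, none of them called. How many of all genes separate in this way was not counted. An unadjusted p under 0.05 between the mutant sexes was found for 11 of the 28 and for 30.5% of all genes.

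The change of the genes with disease severity was asked with the kidney to body weight ratio (KBW), the weight of 1 kidney per mouse as a percentage of body weight. The labels give no units for the weights, so mg and g were taken from the size of the values. KBW ran from 0.836% to 2.145% in the 10 mutants. A slope on KBW with sex as a covariate was called by edgeR for 0% of 14416 genes and for 0 of the 28. DESeq2's Wald test called 577 of all genes and also 0 of the 28. An unadjusted p under 0.05 was found for 9 of the 28 and for 22.3% of all genes. The slope was negative for 19 genes and positive for 9, with a median of -0.33 on the log2 scale per percentage point against -0.06 over all genes. The smallest p values were those of *Nsdhl*, a sterol decarboxylase (slope -0.60, SE 0.19, adjusted p = 0.1), *Hmgcs1* (-0.62, SE 0.21, adjusted p = 0.12) and *Mvd* (-0.59, SE 0.21, adjusted p = 0.126). The exporters had positive slopes of 1.08 (SE 0.41, adjusted p = 0.15) for *Abca1* and 0.82 (SE 0.40, adjusted p = 0.252) for *Abcg1*. Marker lists had larger slopes in the same mice, though edgeR called 0 of their genes. All 16 proximal tubule markers were negative, with a median of -0.84. Of 10 markers of the thick limb, distal tubule and collecting duct, 9 were negative, with a median of -0.82. All 14 macrophage markers (median 2.54), all 10 tubule injury markers (median 2.72) and all 10 proliferation markers (median 1.56) were positive. Their part in the slopes of the sterol genes was not tested.

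Without the sex term, the level of *Nsdhl* in log2 CPM had a Pearson r of -0.695 with KBW (two-sided permutation test, p = 0.0251) and a Spearman rho of -0.697 (permutation p = 0.0299) over the 10 mutants. It was chosen among 28 such correlations for its slope, whose adjusted p over all genes was 0.1. Without MM1 and FM4, the mice farthest from the median KBW, r was -0.225, so the relation rests on these mice. Stronger r were found for *Cyp51* (-0.769), *Pmvk* (-0.718) and *Tm7sf2* (-0.70), and without these mice they were -0.639, -0.64 and -0.558. *Sqle* went the other way, with an r of 0.691, and of 0.591 without these mice. Sex is mixed into these values. With sex as a covariate, the slopes of *Cyp51*, *Pmvk*, *Tm7sf2* and *Sqle* had adjusted p of 0.312, 0.486, 0.229 and 0.313. For *Hmgcs1* and *Mvd* the sexes did not overlap, and no pooled correlation is given. Within a sex there were 5 mutants, fewer than a correlation needs.

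**Figure D3:**
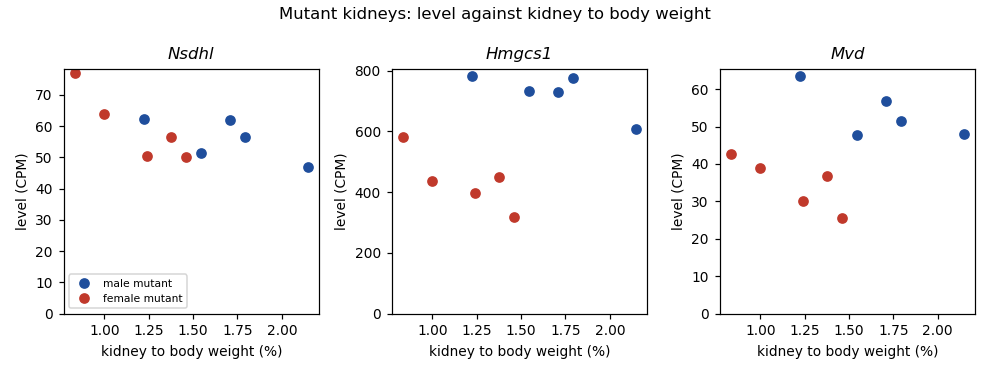
Levels of Nsdhl, Hmgcs1 and Mvd in CPM against KBW in percent of body weight in the 10 mutant kidneys, with male mutants in blue and female mutants in red. The male and female mutants separate in Hmgcs1 and Mvd, and the Nsdhl points at the ends belong to MM1, at the highest KBW, and FM4, at the lowest.

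The other genes of the pathway were counted in the comparison of mutants with controls in both sexes. In it 10.0% of all genes tested were called higher and 5.86% lower, and every list count below is to be read against these shares. No list was tested as a set. Among further synthesis steps, *Acat1*, the mitochondrial thiolase, was lower (-0.35, SE 0.09, adjusted p = 0.00648). Of 11 genes of SREBP processing and sterol-regulated degradation, 2 were higher, the ubiquitin ligase *Rnf145* (0.36, SE 0.06) and the coat protein *Sec24d* (0.30, SE 0.07), and 0 were lower. In the branches to isoprenoids, 3 of 12 were lower, with *Rabggta*, a Rab prenylation subunit, at -0.46 (SE 0.07), *Pdss1*, of ubiquinone synthesis, at -0.32 (SE 0.08), and *Dhdds*, of dolichol synthesis, at -0.21 (SE 0.04).

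Among the genes of cholesterol uptake, release and esterification, *Lipa*, the lysosomal acid lipase, was higher (0.54, SE 0.08), and 0 of the 18 tested were lower. Among 12 other LXR targets and lipoprotein genes, 2 were higher and 0 lower, *Arl4c* (1.08, SE 0.17) and *Apoe* (0.71, SE 0.19), and *Apoe* overlapped between the female groups. Of 8 oxysterol and bile acid enzymes, *Ch25h*, which makes the LXR ligand 25-hydroxycholesterol, was higher (1.52, SE 0.22), and *Cyp7b1* (-1.01, SE 0.27) and *Cyp46a1* (-0.77, SE 0.19) were lower. *Cyp7b1*, which hydroxylates such oxysterols, ranged from 259 to 359 CPM in male controls and from 83.6 to 136 in male mutants, and was at 5.06 or less in every female.

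Of 16 genes of fatty acid synthesis under SREBP-1c, 3 were lower, *Acacb* (-0.59, SE 0.07), *Me1* (-0.47, SE 0.07) and *Acss2* (-0.42, SE 0.08), and 0 were higher, whereas *Srebf1* itself was not called. Of 3 adrenal markers tested, *Akr1b7* was lower (-0.78, SE 0.19), and the steroid enzyme genes *Cyp11a1*, *Cyp11b1* and *Cyp21a1* reached at most 0.339 CPM. Of 3 adipose markers 0 were called, and of 5 liver markers *Fgb*, a fibrinogen chain, was higher (1.26, SE 0.30). The list genes named here were those called with the largest changes.

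Most pairs of synthesis enzymes also varied together between mice. With group means removed, 128 of the 153 pairs among the 18 synthesis enzymes had a positive correlation over the 20 mice. The median r was 0.312 against 0.0028 over all pairs of genes tested, for which positive pairs were not counted. Levels were scaled for library size, but differences between litters were not removed, and no test was made. The median r with the other enzymes was lowest for *Sqle*, at -0.10, and *Lss*, at 0.07. *Insig1* followed the synthesis enzymes with a median r of 0.461. *Srebf2*, whose protein controls them, had a median of -0.11, and *Abca1* and *Abcg1* had -0.49 and -0.42. The female mutant FM3 lay far from its group in *Abca1*, at 155 CPM against 53.1 to 71.8, and in *Srebf2*, at 129 against at most 107. FM3 also had the lowest *Acat2*, *Hmgcs1*, *Mvd* and *Cyp51* of the female mutants. The correlations were not computed without FM3, so its part in them was not tested.

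**Figure D4:**
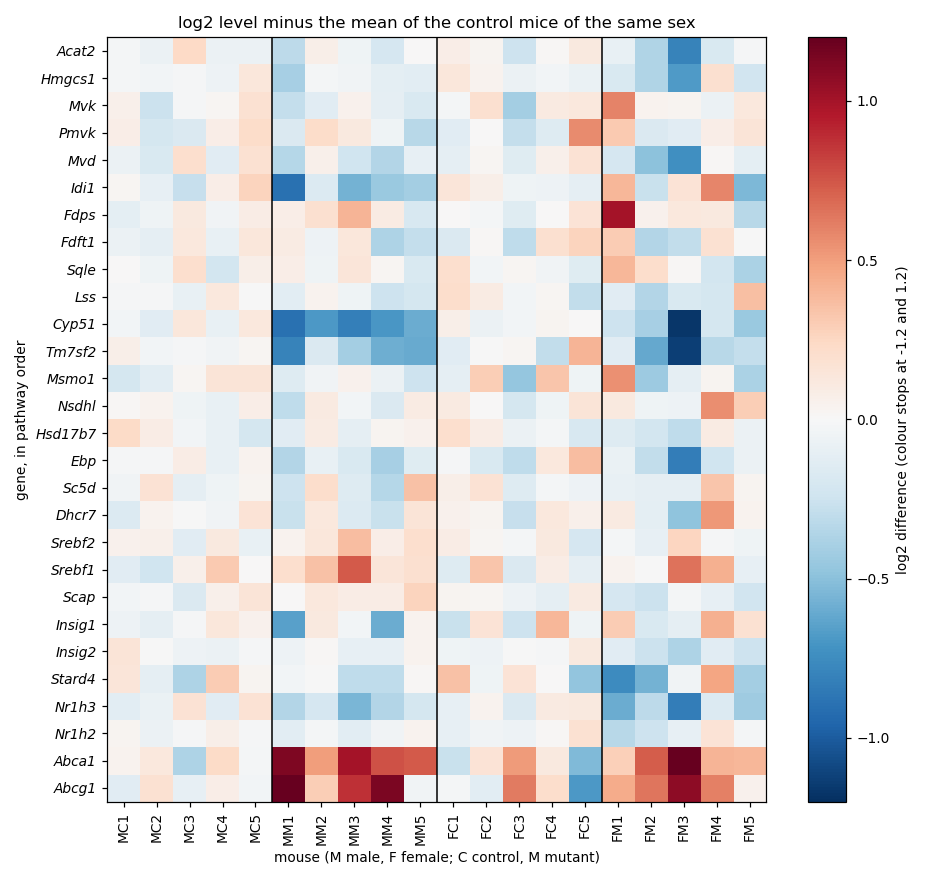
Log2 level of each of the 28 genes in each mouse minus the mean of the control mice of the same sex, with genes in pathway order and mice by group. Red is higher and blue lower, and colours stop at 1.2. Cyp51 and Tm7sf2 are blue in most mutants and most strongly in FM3, and Abca1 and Abcg1 are red in all or nearly all of them.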

How the data were processed

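RNA of 20 kidneys (5 mice in each of 4 groups) was sequenced by the authors. Per the submitters' processing notes, fastp 0.23.2 and STAR 2.7.10b were used with build mm10. The authors deposited raw counts per gene symbol, which are whole numbers that had not been normalized. The counting tool, annotation and strandedness were not given in the sources used here.

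Tests were run with edgeR 4.0.16 under R 4.3.3, using TMM normalization, filterByExpr, quasi-likelihood tests and Benjamini-Hochberg adjustment over all genes tested, with litter as a covariate (sex and litter where both sexes entered, sex alone for KBW). Genes were called at an adjusted p under 0.01. Log2 CPM used a prior count of 2. The standard error is the log2 fold change divided by the root of F. Permutation tests used 100000 resamples. DESeq2 1.42.0 was an alternative. P-values measure the spread between mice. The fits were tested on simulated data.

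Per-mouse values are given for genes called, or among the 3 largest or smallest changes of the 28, in the joint comparison or between control sexes; further list genes are the 4 largest changes called. Members and lists were chosen with earlier results of these data known. Some genes of these lists are not reported here. Alternatives were another normalization, test, filter, threshold or covariate set, all mice in 1 fit, and each mouse left out.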

Additional observations from a re-analysis of the deposited data

Results flagged for a closer look

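Among the 112 combinations of a gene and a group, 11 held a single mouse that lay far from the other 4 by Dixon's test, which chance does in about 1 of 20 groups. *Acat2* was at 118 CPM in MC3 against 94.7 to 97.9 in the other male controls. *Hmgcs1* was at 876 CPM in MC5 against 763 to 787 in the other male controls. *Mvk* was at 24.0 CPM in FM1 against 15.1 to 17.3 in the other female mutants. *Pmvk* was at 28.4 CPM in FC5 against 15.7 to 19.1 in the other female controls. *Fdps* was at 61.2 CPM in FM1 against 24.4 to 33.5 in the other female mutants. *Lss* was at 28.9 CPM in FM5 against 17.6 to 20.4 in the other female mutants. *Sc5d* was at 44.9 CPM in FM4 against 33.0 to 36.4 in the other female mutants. *Dhcr7* was at 16.2 CPM in FC3 against 20.1 to 21.3 in the other female controls. *Srebf2* was at 129 CPM in FM3 against 100.4 to 107 in the other female mutants. *Insig2* was at 72.0 CPM in FC5 against 63.7 to 66.1 in the other female controls. *Abca1* was at 155 CPM in FM3 against 53.1 to 71.8 in the other female mutants. Of these, 2 were in FM1, 2 in FM3 and 2 in FC5. The reasons were not tested.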

How the results depend on the processing

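No paired analysis was possible because the labels give no replicate numbers that join mice across groups; litter was used as a covariate instead. In both sexes together, the 5 calls were made under every alternative and in all 20 fits that left out a mouse; DESeq2's Wald test and an adjusted p under 0.05 each gave 6 with *Ebp*. Male against female controls gave 5 to 9 calls against 6. In males against their controls, 2 calls became 6 with DESeq2's Wald test, 7 at an adjusted p under 0.05 and 1 with all 20 mice in 1 fit, and lay between 1 (without MC4) and 5 (without MM2) when a mouse was left out. In females, 0 calls became 1 (*Nr1h3*) with all 20 mice in 1 fit. Between male and female mutants, 2 calls became 6 with DESeq2's Wald test, 8 at an adjusted p under 0.05 and 7 with all 20 mice in 1 fit, and lay between 1 and 4 (without FM4) when a mouse was left out. The cause was not tested. The sex-by-genotype term and the KBW slope gave 0 calls throughout. For *Nsdhl* and KBW, r was -0.225 without the 2 mice farthest from the median. Over all genes, DESeq2's Wald test called 2001 in males against 1185 by edgeR, 928 in females against 92, 1959 between male and female mutants against 782, 18 against 0 for the sex-by-genotype term and 577 against 0 for the KBW slope. An adjusted p under 0.05 gave 3778 against 2252 in both sexes, 2829 in males, 791 in females, 4211 against 2510 between control sexes, 2099 between mutant sexes, 1 for the sex-by-genotype term and 363 for KBW. All 20 mice in 1 fit gave 856 in females and 2353 between mutant sexes. Without a filter the females gave 230, and without a litter term 172. With litter added, KBW gave 10. Leaving out a mouse gave 187 (without MC4) to 1863 (without MM2) in males, 3 to 866 (without FM4) in females, 1223 (without MC4) to 2659 between control sexes, 246 to 1330 (without FM4) between mutant sexes, up to 3 for the sex-by-genotype term and up to 76 for KBW. No called gene changed sign. The lowest depth, 11307741 counts, limits the low genes most.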
